A study of Saccharomyces cerevisiae with 46 samples.

Results

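RNA from whole cells was sequenced in budding yeast that lacks *SPT4* and in its parent, to ask which transcripts stand at another level when this elongation factor is absent. The comparison holds 4 of the 46 samples of the series and 4 of its 10 RNA-seq libraries, namely both *spt4Δ* libraries and both WT libraries of 1 deposited table of normalized counts, and every gene with a mean of 10 or more was read. WT was the *MATa* strain BY4741 with a 3xFLAG tag on *RPB3*, a subunit of RNA polymerase II (RNAPII). *spt4Δ* was the same tagged strain with *SPT4* replaced by a KanMX6 cassette, so both groups carry the tagged polymerase and the *his3Δ1*, *leu2Δ0*, *met15Δ0* and *ura3Δ0* alleles of BY4741. Neither group was treated, and both were grown in rich glucose medium. Replicate numbers are all that the labels give of how the libraries of a group were obtained, so p-values measure the spread between these libraries, which may be technical, and a library from fewer cells cannot be told from one with less RNA per cell.

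Spt4 is a small zinc-finger protein that binds Spt5, and the pair rides on RNAPII during elongation. Spt5 is essential for growth while Spt4 is not. A deletion strain has lived without Spt4 for many generations, so its RNA shows a steady state. In yeast on glucose, fermentation genes are highly expressed while genes for stress protection, reserve carbohydrates and respiration are held low.

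The 4 libraries held 2743158 to 6814227 reads on genes. In the deposited values the *spt4Δ* libraries stood apart from each other: relative to the mean library, the median ratio was 0.750 in both WT libraries, 2.16 in *spt4Δ* replicate 1 and 0.835 in *spt4Δ* replicate 2. Each library was therefore divided by its own ratio, and the rescaled normalized count is the level given throughout. How the deposited factors were set is not given in the sources used here, and the labels name an *S. pombe* genome build. A shift shared by most genes would be removed by the rescaling, and whether there was one was not tested. After this step the *spt4Δ* replicates still differed more than the WT replicates. The interquartile range of the log2 difference between replicates, over 4115 genes with a mean of 100 or more, was 0.718 in *spt4Δ* and 0.275 in WT.

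*SPT4* (YGR063C, chrVII:617516-617824 of R64, minus strand, protein coding with no intron) had 450 and 479 rescaled normalized counts in the WT libraries, from 531 and 250 reads. It had 0 reads in *spt4Δ* replicate 1, where 3 reads would amount to 2.55 rescaled normalized counts, and 4 reads or 2.82 rescaled normalized counts in replicate 2. The deleted gene was thus nearly without reads in both libraries labelled *spt4Δ* (log2 change -7.90, SE 0.552, limma adjusted p = 5.03e-05). Among its neighbours, *COX18*, a factor for membrane insertion of a cytochrome oxidase subunit, had 153 and 155 in WT and 84.2 and 69.8 in *spt4Δ* (log2 -0.997, limma adjusted p = 0.0964), and *VHT1*, the biotin transporter, had 223 and 215 against 299 and 235 (log2 0.28, limma adjusted p = 0.754). *RPB3* had 1124, 1064, 1672 and 1088 in WT replicates 1 and 2 and *spt4Δ* replicates 1 and 2. Markers of *MATa* cells were present in every library, with 1634 to 2625 for the pheromone receptor gene *STE2*. Among markers of *MATalpha* cells, *MF(ALPHA)1*, which encodes alpha-factor, had 0 or 1 read in each library. *MF(ALPHA)2* had 1, 0, 4 and 9 reads in WT replicates 1 and 2 and *spt4Δ* replicates 1 and 2. In the same order, *STE3* had 17, 9, 23 and 27 reads and *SAG1* had 33, 3, 12 and 37. These 2 were near the *MATa* marker *ASG7*, with 16, 11, 27 and 31 reads.

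Most transcripts stayed near their WT level relative to the median gene, which the rescaling itself places near no change. Of 5278 genes tested, 96.9% lay within 2-fold of WT and 55 were called at a limma adjusted p under 0.05, or 1.04%. Of these, 36 were higher in *spt4Δ* (0.682% of genes tested) and 19, *SPT4* included, were lower (0.36%). Every called gene changed by 2-fold or more, with no overlap between the 2 WT and the 2 *spt4Δ* libraries. Lack of overlap alone was common, with both *spt4Δ* libraries above both WT libraries at 20.2% of genes tested and below both at 20.3%. At an unadjusted p under 0.05 there were 565 genes. On recovered reads, edgeR with TMM called 47 genes, all among the 55, and DESeq2 called 108, which included all 55.

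**Figure D1:**
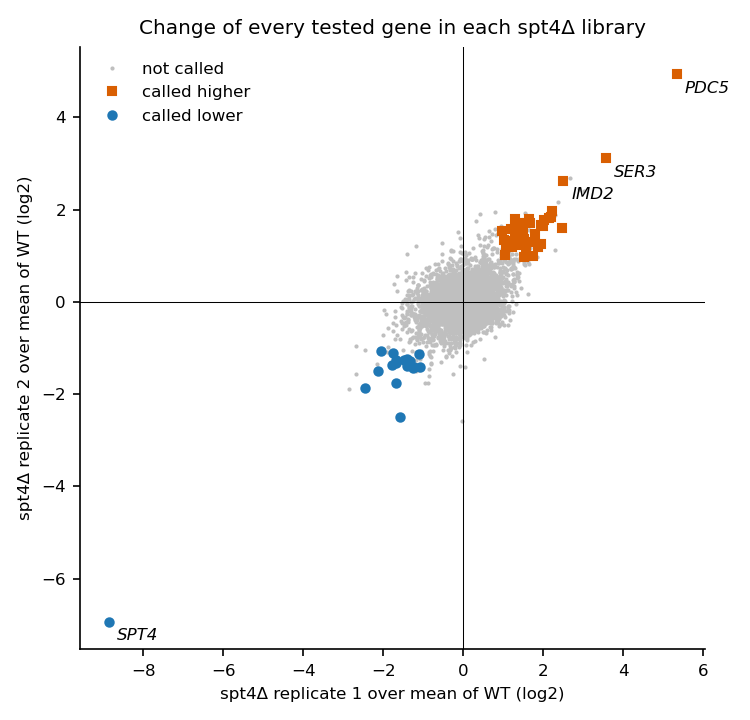
Log2 change of each of the 5278 tested genes in *spt4Δ* replicate 1 (horizontal axis) and replicate 2 (vertical axis), each against the mean of the 2 WT libraries. Orange squares are the 36 genes called higher, blue circles the 19 called lower and grey points the rest, and *PDC5*, *SER3*, *IMD2* and *SPT4* lie far from the cloud in both libraries.

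The number of calls rests on the libraries and on the scaling. Without WT replicate 1 it was 16 and without WT replicate 2 it was 27, whereas it was 491 without *spt4Δ* replicate 1 and 1586 without *spt4Δ* replicate 2, where the lone *spt4Δ* library is taken to vary as the WT libraries do. All 55 genes kept their direction in each of these fits. On the values as deposited, 15 of 16 called genes were higher and 5 were among the 55, and the median of all genes moved to a log2 change of 0.83. With each library scaled to the same total, 12 of 14 called genes were higher and 13 were among the 55. Directions below are relative to the median gene. Across 5278 genes, 55.2% had the same sign in both *spt4Δ* libraries, which share the WT mean they are set against.

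The largest rise was that of *PDC5* (YLR134W, chrXII:410723-412414, plus strand), which encodes the minor form of pyruvate decarboxylase, the enzyme that commits pyruvate to ethanol. It had 90.7 and 67.1 rescaled normalized counts in WT and 3199 and 2408 in *spt4Δ*, a 35.1-fold difference (log2 5.13, SE 0.248, limma adjusted p = 1.98e-06). The lowest *spt4Δ* library stood far above the highest WT library. *PDC1*, which encodes the main form, had 25933 and 27446 in WT and 11576 and 15754 in *spt4Δ*. Both *spt4Δ* libraries lay below both WT libraries at *PDC1*, but the limma test was not passed (log2 -0.98, SE 0.313, limma adjusted p = 0.237). With DESeq2, 1 of the alternatives, *PDC1* was called lower (DESeq2 adjusted p = 0.0153). Per kilobase, *PDC5* made up 0.295% of the sum of the pair in WT and 17.02% in *spt4Δ*. *PDC6*, the third isozyme gene, had 5.09 to 9.87 in the 4 libraries and was under the filter.

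*SER3* (YER081W, chrV:322686-324095, plus strand) encodes 3-phosphoglycerate dehydrogenase, the first step of serine synthesis. It had 957 and 959 in WT and 11439 and 8332 in *spt4Δ* (10.2-fold, log2 3.35, SE 0.261, limma adjusted p = 0.000105). Its paralog *SER33*, which encodes the same activity and has the same annotated length, had 870 and 982 in WT and 1092 and 898 in *spt4Δ* (log2 0.10, limma adjusted p = 0.935). The groups overlapped at *SER33* and lay far apart at *SER3*. The other genes of serine, glycine and one-carbon metabolism did not rise with it: of 15 tested, *SER3* was the 1 called higher, none was called lower, and the list had a median log2 change of -0.26, with *GLY1*, threonine aldolase, lowest at -0.84. In yeast grown with serine, *SER3* is held off by transcription of the non-coding RNA *SRG1* across its promoter. *SRG1* is annotated from 322212 to 322762 on the same strand, so that it overlaps the first bases of *SER3*, and it has no row of its own in the table. The 300 bases that lie 400 to 101 bases before the *SER3* start codon are shown because they fall wholly within *SRG1*. Capitals mark the 1 match to the stress response element, CCCCT on either strand, which is read for all genes further on. Sequences here are from the RefSeq R64 genome, 5′ to 3′ on the strand of the gene.
*SER3* (chrV:322286-322585, plus strand): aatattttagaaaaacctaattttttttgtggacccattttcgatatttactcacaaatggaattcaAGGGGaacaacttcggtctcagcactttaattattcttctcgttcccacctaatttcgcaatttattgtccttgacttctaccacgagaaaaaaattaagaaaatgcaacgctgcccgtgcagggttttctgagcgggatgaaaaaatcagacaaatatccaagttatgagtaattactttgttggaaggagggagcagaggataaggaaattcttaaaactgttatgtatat

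*IMD2* (YHR216W, chrVIII:554396-555967, plus strand) encodes IMP dehydrogenase, the step that commits purine synthesis to guanine nucleotides, and is known for a choice between upstream and downstream start sites that follows the GTP pool. It had 254 and 265 in WT and 1467 and 1610 in *spt4Δ* (5.90-fold, log2 2.56, SE 0.218, limma adjusted p = 0.000195). *URA8*, CTP synthase, rose as well, from 404 and 387 to 1186 and 870 (log2 1.36, limma adjusted p = 0.0211). These were the 2 genes called among 12 of the list of IMP dehydrogenase and pyrimidine synthesis, whose median was 0.28. Over all genes tested, 0.682% were called higher. *IMD3* (log2 0.60) and *IMD4* (log2 0.52), which encode the constitutive forms, were not called (limma adjusted p = 0.543 and 0.56), and *URA4*, dihydroorotase, was lowest at -0.47. Of 15 genes of purine synthesis none was called, and their median was -0.13. Reads on near-identical genes such as *IMD2*, *IMD3* and *IMD4*, *PDC1* and *PDC5*, or *TDH1*, *TDH2* and *TDH3* may have been split or dropped in counting, so the level of each is uncertain by that amount.

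Several genes that rose have a paralog that was more abundant in WT. Of 12 genes called higher that have a paralog in the list drawn up for them, 10 had a paralog above them in WT by over 2-fold in rescaled normalized counts per kilobase. In WT the main paralog exceeded *GPM2*, a phosphoglycerate mutase homolog, 483-fold (*GPM1*), *PYK2*, pyruvate kinase, 312-fold (*CDC19*), *GDH3*, glutamate dehydrogenase, 150-fold (*GDH1*), and *TDH1*, glyceraldehyde-3-phosphate dehydrogenase, 69.7-fold (*TDH3*). In *spt4Δ* the same ratios were 109, 76.97, 89.4 and 19.1. *NQM1*, a transaldolase homolog, had 50.0 and 38.4 in WT and 209 and 175 in *spt4Δ* (log2 2.10, limma adjusted p = 0.00592), while *TAL1*, the main transaldolase, had 1976 and 1782 against 1310 and 1412 (log2 -0.46, limma adjusted p = 0.537). *ANB1*, the form of translation factor eIF5A made when oxygen is short, had 83.9 and 86.3 in WT and 397 and 306 in *spt4Δ* (log2 2.02, limma adjusted p = 0.00319). *HYP2*, the form made in air, had 3817 and 3826 in WT and 2274 and 2512 in *spt4Δ* (log2 -0.68, limma adjusted p = 0.317). None of the main paralogs in these pairs passed the test in either direction. The 2 exceptions to the pattern were *SER3*, level with *SER33* in WT, and *HOR7*, which had 321 times the level of *DDR2* per kilobase in WT. Genes that fell also had a higher paralog in WT in some pairs: *GLO4* stood 8.59-fold under *GLO2*, *PIR1* 3.24-fold under *CIS3* and *HXT1* 2.70-fold under *HXT3*. The pairs were drawn up around the called genes and the share over all pairs of paralogs was not computed, so these values are a description and the trait is not shown to go with a rise.

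**Figure D2:**
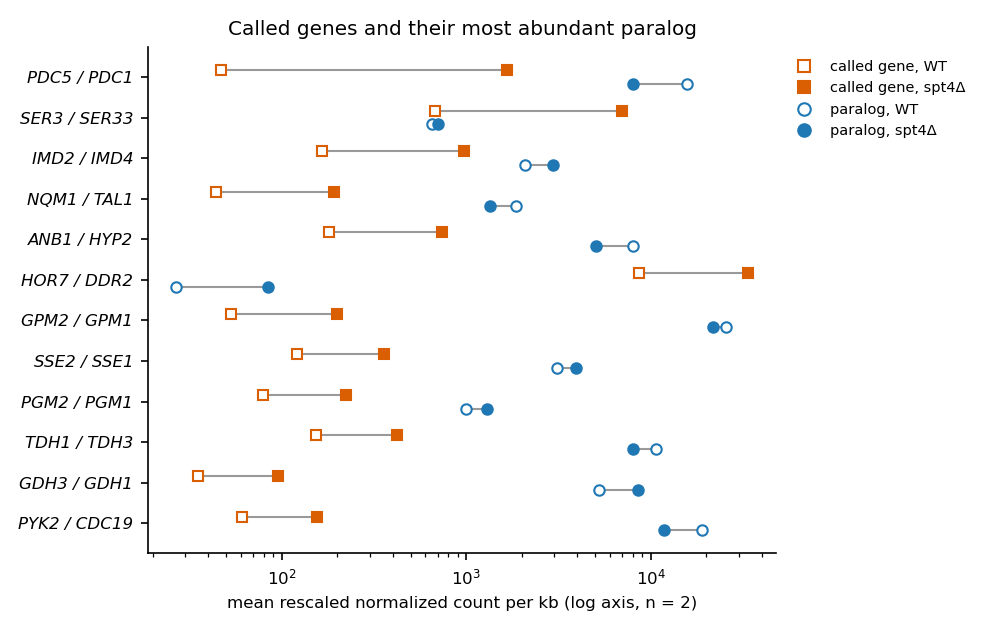
Mean rescaled normalized count per kilobase (log axis, n = 2 libraries a group) of 12 genes called higher in *spt4Δ* (orange squares) and of the paralog of each with the highest WT level (blue circles), in WT (open) and *spt4Δ* (filled). In 10 pairs the called gene starts far below its paralog and moves toward it, as *PDC5* does from 46.6 to 1657 while *PDC1* goes from 15774 to 8076. Such a move is largely set by the choice of genes that rose.

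Genes of the general stress response stood higher as a group. In yeast these genes share the stress response element (STRE), the binding site of Msn2 and Msn4, and are low in growing cells. Of 30 members tested, 4 were called higher, against 0.682% of all genes tested, and none lower. Of the 30, 25 lay above both WT libraries in both *spt4Δ* libraries (83.3%, against 20.2% of all genes tested). The median log2 change was 0.73, against -0.01 over all genes, and it was 0.61 in *spt4Δ* replicate 1 and 0.80 in replicate 2. *HOR7*, a small protein induced by high osmolarity, had 1258 and 1851 in WT and 6743 and 5396 in *spt4Δ* (log2 1.98, SE 0.279, limma adjusted p = 0.00807). *GAD1*, glutamate decarboxylase, had 78.0 and 107 in WT and 289 and 319 in *spt4Δ* (log2 1.72, SE 0.242, limma adjusted p = 0.00807). The groups of both genes lay well apart. *PNC1*, the nicotinamidase of NAD salvage, had 804 and 967 in WT and 3428 and 2097 in *spt4Δ* (log2 1.60, limma adjusted p = 0.0211). *HSP12*, a membrane-protecting protein, had 160 and 115 in WT and 313 and 409 in *spt4Δ* (log2 1.39, limma adjusted p = 0.0251). At the other end of the list, *SED1*, a cell wall protein, had a log2 change of -0.11.

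Reserve carbohydrate genes made up the second group. Glycogen and trehalose both draw on glucose-6-phosphate and on phosphoglucomutase, which *PGM1* and *PGM2* encode. Of 17 genes tested, 3 were called higher, against 0.682% of all genes tested, and none lower. Of the 17, 13 lay above both WT libraries (76.5%, against 20.2% of all genes tested). The median log2 change was 0.64, with 0.50 in *spt4Δ* replicate 1 and 0.77 in replicate 2. *GLC3*, the glycogen branching enzyme, had 100 and 99.7 in WT and 320 and 330 in *spt4Δ* (log2 1.69, SE 0.218, limma adjusted p = 0.00592). *PGM2* had 102 and 169 in WT and 374 and 386 in *spt4Δ* (log2 1.53, limma adjusted p = 0.0208). *PGM1* stood 12.7-fold above it per kilobase in WT and was not called (log2 0.36, limma adjusted p = 0.714). *TPS1*, trehalose-6-phosphate synthase, had 502 and 593 in WT and 1268 and 1357 in *spt4Δ* (log2 1.26, limma adjusted p = 0.0247). The 3 called genes thus include the less abundant phosphoglucomutase gene and a gene of each branch. *GLG2*, a glycogenin that primes glycogen chains, was lowest at -0.52.

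The DNA upstream of these genes was read for the STRE, CCCCT on either strand, in a window of 300 bases ending 101 bases before the start codon, so that most of the transcribed leader is left out. Of 5129 windows of tested genes, 23.9% held at least 1 match and 4.19% held 2 or more. Among the 34 annotated genes called higher, 21 windows held a match (61.8%) and 11 held 2 or more (32.4%), and among the 18 called lower the counts were 5 (27.8%) and 0. In the stress list 24 of 30 windows had a match (80.0%), and in the trehalose and glycogen list 14 of 17 (82.4%). Stress genes are known to share this element, so the share in the stress list was largely set by the choice of its members. A TATA motif, read in the same windows, was matched in 43.3% of those of all tested genes. For it the shares were 64.7% among genes called higher and 77.8% among genes called lower. These are matches of letters, and binding was not measured. The windows of 4 called genes are given because they show how the matches, in capitals, differ in number and place: 1 in *GAD1*, 2 in *HOR7*, and 3 each in *GLC3* and *HSP12*. The *HSP12* window also overlaps the annotated reading frame YFL015C.
*HOR7* (chrXIII:774352-774651, plus strand): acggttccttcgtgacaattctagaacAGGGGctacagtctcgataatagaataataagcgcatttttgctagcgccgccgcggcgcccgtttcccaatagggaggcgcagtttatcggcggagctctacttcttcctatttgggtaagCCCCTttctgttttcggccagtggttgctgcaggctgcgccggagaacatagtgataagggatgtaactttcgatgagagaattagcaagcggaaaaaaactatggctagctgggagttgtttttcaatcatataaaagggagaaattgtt
*GAD1* (chrXIII:770401-770700, plus strand): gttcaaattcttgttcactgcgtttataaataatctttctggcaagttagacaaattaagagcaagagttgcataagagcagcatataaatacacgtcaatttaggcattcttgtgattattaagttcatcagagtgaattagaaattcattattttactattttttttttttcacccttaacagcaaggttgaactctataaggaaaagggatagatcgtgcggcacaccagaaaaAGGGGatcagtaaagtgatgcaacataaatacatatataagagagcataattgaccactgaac
*GLC3* (chrV:132720-133019, plus strand): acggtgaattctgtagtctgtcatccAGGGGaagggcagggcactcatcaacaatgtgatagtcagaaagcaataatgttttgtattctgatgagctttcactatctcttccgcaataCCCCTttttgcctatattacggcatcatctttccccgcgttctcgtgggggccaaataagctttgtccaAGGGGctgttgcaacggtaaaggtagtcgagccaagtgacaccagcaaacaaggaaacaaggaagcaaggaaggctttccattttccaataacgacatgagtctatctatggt
*HSP12* (chrVI:106856-107155, plus strand): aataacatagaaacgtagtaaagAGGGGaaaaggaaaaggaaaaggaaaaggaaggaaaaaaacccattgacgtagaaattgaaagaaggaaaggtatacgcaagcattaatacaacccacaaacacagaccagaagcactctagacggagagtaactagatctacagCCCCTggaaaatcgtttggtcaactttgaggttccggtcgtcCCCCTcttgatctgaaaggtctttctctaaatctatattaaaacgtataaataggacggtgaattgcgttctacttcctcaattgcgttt

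Other genes called higher belong to protein quality control and to nitrogen, carbon and vitamin metabolism. *UBI4*, the stress-induced polyubiquitin gene, had 664 and 955 in WT and 3052 and 2517 in *spt4Δ* (log2 1.80, SE 0.261, limma adjusted p = 0.00861). Its repeats match other ubiquitin genes, which makes its count uncertain. Among 27 heat-shock chaperone genes, *SSE2*, an Hsp110 nucleotide exchange factor (log2 1.55, limma adjusted p = 0.00861), and *HSP78*, the mitochondrial disaggregase (log2 1.15, limma adjusted p = 0.0365), were called higher. None was called lower, and the median was 0.20. Over all genes tested, 0.682% were called higher. Both *spt4Δ* libraries lay above both WT libraries at 12 of these genes (44.4%, against 20.2% of all genes tested). They lay below both at 3 (11.1%, against 20.3%). *SSA2*, a constitutive Hsp70, was lowest at -0.72. *CAR1*, arginase, had 640 and 660 in WT and 2582 and 2021 in *spt4Δ* (log2 1.81, SE 0.237, limma adjusted p = 0.00594), and it was the 1 gene called among 24 under nitrogen catabolite repression (median 0.19). *SPS19*, a peroxisomal dienoyl-CoA reductase, had 32.2 and 26.8 in WT and 168 and 91.6 in *spt4Δ* (log2 2.04, SE 0.338, limma adjusted p = 0.0171). *GPM2*, *TDH1* and *PYK2* rose by log2 1.89, 1.51 and 1.35 and *GDH3* by 1.44. With *PDC5*, *TDH1* and *PYK2* were the 3 genes called among 24 of glycolysis and fermentation, where the median was 0.00 and *PDC1* was lowest.

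To complete the set, and chosen after their values were seen, the other genes called higher had log2 changes of 1.04 to 1.65. They were *APE1*, a vacuolar aminopeptidase, *MCH5*, a riboflavin transporter, *SDH6*, an assembly factor of succinate dehydrogenase, *PIC2*, a mitochondrial carrier, *IZH4*, *TRS31*, a subunit of the TRAPP tethering complex, *LSP1*, an eisosome component, *BIO2*, biotin synthase, *DCS1*, a scavenger decapping enzyme, *PCS60*, a peroxisomal protein, *HSU1*, *YMR196W*, and YPR160W-A and YBR012C, for which the annotation used has no entry.

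**Figure D3:**
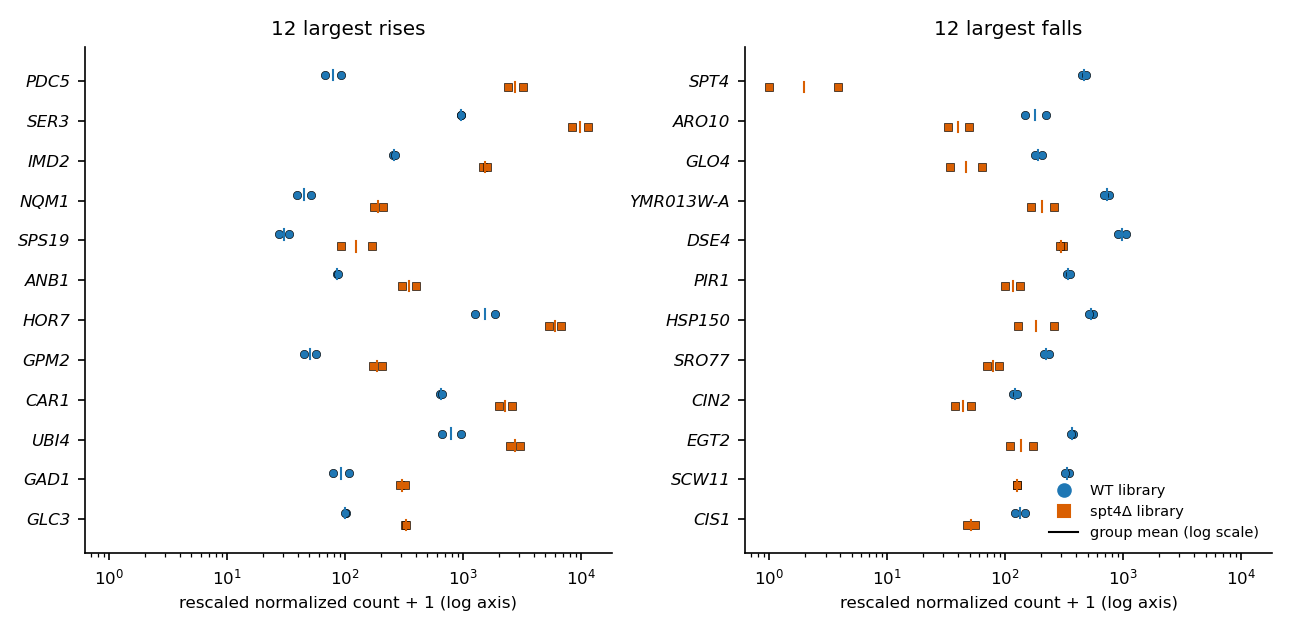
Rescaled normalized count plus 1 (log axis) of the 12 genes that rose most and the 12 that fell most, in each WT library (blue circles) and each *spt4Δ* library (orange squares), with a tick at the group mean on the log scale. Lack of overlap between the groups was a condition for showing a gene. *PDC5*, *SER3* and *IMD2* rise the most, while *SPT4* falls from 450 and 479 to 0 and 2.82.

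Genes for cell separation stood lower as a group, and 4 of them fell by the test. After cytokinesis, glucanases and a chitinase made by the daughter cell cut the septum from its side. Of 17 members of the list of daughter-specific and cell separation genes, 4 were called lower, against 0.36% of all genes tested, and none higher. Of the 17, 13 lay below both WT libraries in both *spt4Δ* libraries (76.5%, against 20.3% of all genes tested). All 17 had log2 changes below 0, from -0.12 for *CBK1*, a kinase of polarized growth and cell separation, to -1.75 for *PRY3*, a cell wall protein whose limma adjusted p was 0.0508. The median was -0.75, with -1.23 in *spt4Δ* replicate 1 and -0.66 in replicate 2. *DSE4*, an endo-1,3-β-glucanase, had 899 and 1064 in WT and 306 and 288 in *spt4Δ* (log2 -1.72, SE 0.222, limma adjusted p = 0.00592). *SCW11*, a glucanase-like cell wall protein, had 344 and 322 in WT and 124 and 126 in *spt4Δ* (log2 -1.40, SE 0.216, limma adjusted p = 0.0126). Replicates of a group agreed closely at both genes. *EGT2*, a cell wall endoglucanase, had 377 and 359 in WT and 108 and 171 in *spt4Δ* (log2 -1.43, SE 0.256, limma adjusted p = 0.0247). *SUN4*, a glucanase-like protein of septation, had 1034 and 1047 in WT and 482 and 474 in *spt4Δ* (log2 -1.12, SE 0.217, limma adjusted p = 0.0342). On the values as deposited the median of this list was 0.085 where the median gene stood at 0.83, which leaves it -0.75 relative to that gene.

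Further cell surface genes fell outside that list. *PIR1* and *HSP150*, which encode O-mannosylated wall proteins of the same family, had log2 changes of -1.57 (SE 0.234, limma adjusted p = 0.0104) and -1.56 (SE 0.301, limma adjusted p = 0.0342). *PIR1* had 333 and 351 in WT and 98.7 and 132 in *spt4Δ*, and *HSP150* had 559 and 516 against 128 and 257. Their relatives *PIR3* (log2 -0.27) and *CIS3* (log2 -0.15) were not called (limma adjusted p = 0.771 and 0.88). In the cell wall list as a whole 3 of 34 genes were called lower, against 0.36% of all genes tested, and none higher. The third was *SUN4*, which is also in the cell separation list, and the median of the cell wall list was -0.05. *HXT1*, the low-affinity glucose transporter used at high glucose, had 510 and 495 in WT and 201 and 206 in *spt4Δ* (log2 -1.30, SE 0.212, limma adjusted p = 0.0171) and was the 1 gene called among 11 of the list of hexose transporters and sensors. *HXT7*, a high-affinity transporter, stood at the other end with 31.4 and 40.3 against 179 and 78.2 (log2 1.71, limma adjusted p = 0.069), and its count is uncertain because *HXT6* is nearly identical.

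*ARO10*, a decarboxylase of the route from aromatic amino acids to fusel alcohols, had 145 and 219 in WT and 31.5 and 47.9 in *spt4Δ* (log2 -2.17, SE 0.309, limma adjusted p = 0.00836). *GLO4*, a mitochondrial glyoxalase, had 178 and 203 in WT and 63.0 and 33.1 in *spt4Δ* (log2 -2.03, SE 0.315, limma adjusted p = 0.0126), while *GLO2*, its cytoplasmic paralog, had a log2 change of 0.27 (limma adjusted p = 0.819). *SRO77*, a homolog of the Lgl proteins that act in exocytosis, fell by 1.50 on the log2 scale (limma adjusted p = 0.0162), and its paralog *SRO7* had 0.33 (limma adjusted p = 0.682). In these 2 pairs the groups were apart at the called gene, and the paralog did not pass the test. *CIN2*, a tubulin folding factor, fell by 1.47 (limma adjusted p = 0.034), *ATR1*, a multidrug efflux pump, by 1.32 (limma adjusted p = 0.0257) and *CIS1* by 1.37 (limma adjusted p = 0.0342). With edgeR the call was lost at *CIN2* (edgeR adjusted p = 0.0618) and *CIS1* (0.0619), and also at *HSP150* (0.0531) and *GDH3* (0.0574). YMR013W-A, which the annotation used does not list, had 761 and 688 in WT and 164 and 256 in *spt4Δ* (log2 -1.81, limma adjusted p = 0.00807). The 4 genes left in this direction, named for completeness, were *ATF2*, an alcohol acetyltransferase, *KEI1*, a part of inositol phosphorylceramide synthase, *VPS55*, an endosomal protein, and *YHR033W*.

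Groups with small shifts held many genes. The 137 ribosomal protein genes had a median log2 change of -0.26 and the 83 ribosome biogenesis genes one of -0.25, with no gene called in either list. None of them lay above both WT libraries, and 64 ribosomal protein genes (46.7%) and 40 ribosome biogenesis genes (48.2%) lay below both, against 20.3% of all genes tested. The medians in *spt4Δ* replicates 1 and 2 were -0.22 and -0.31 for ribosomal protein genes and -0.23 and -0.31 for ribosome biogenesis. Within the former, the 55 genes of the 40S subunit had -0.07 and -0.32 and the 76 of the 60S subunit -0.28 and -0.33, so the replicates differed for the 40S genes. *RPL8A* was lowest among the former (log2 -1.11) and *RPL15B* highest (log2 0.39). In the other direction, the 25 genes of the TCA and glyoxylate cycles had a median of 0.27, with *CIT1*, citrate synthase, highest at 1.07. The 36 genes of the respiratory chain and ATP synthase had a median of 0.20, with *COX5B*, the hypoxic form of cytochrome oxidase subunit V, highest at 1.13. No gene of these lists was called either. For some lists the replicates differed: the proteasome list of 32 genes had medians of 0.48 and 0.05 in *spt4Δ* replicates 1 and 2, sterol and fatty acid synthesis (36 genes) had 0.52 and -0.03, and the phosphate regulon (24 genes) had -0.17 and -0.49.

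Genes for the transcription machinery itself stayed close to WT. The medians were -0.04 for 11 subunits of RNAPII, 0.02 for 11 subunits of TFIIH, -0.01 for 43 general transcription factors and Mediator subunits, and -0.04 for 43 elongation factors and histone chaperones, where *SPT4* was the only gene called. Histone genes (11 tested, median 0.01) and kinetochore and cohesin genes (31 tested, median 0.00), read because Spt4 is also found at centromeres, held no called gene. Genes with an intron had a median of -0.13 over 239 genes and of -0.01 over the 150 that are not ribosomal protein genes. With genes cut by length into 5 bins of like size, the medians of the 4 shorter bins lay between 0.01 and 0.05, and the longest bin (2037 to 4779 bases) stood at -0.09. That difference was carried by *spt4Δ* replicate 1 (-0.20), as replicate 2 stood at 0.01. In Spt4-AA, the separate comparison described last, the medians went from 0.08 in the shortest bin to -0.08 in the longest. By level, cut the same way, the replicates ran in opposite directions, from -0.29 in the lowest to 0.22 in the highest bin in replicate 1 and from 0.15 to -0.17 in replicate 2.

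**Figure D4:**
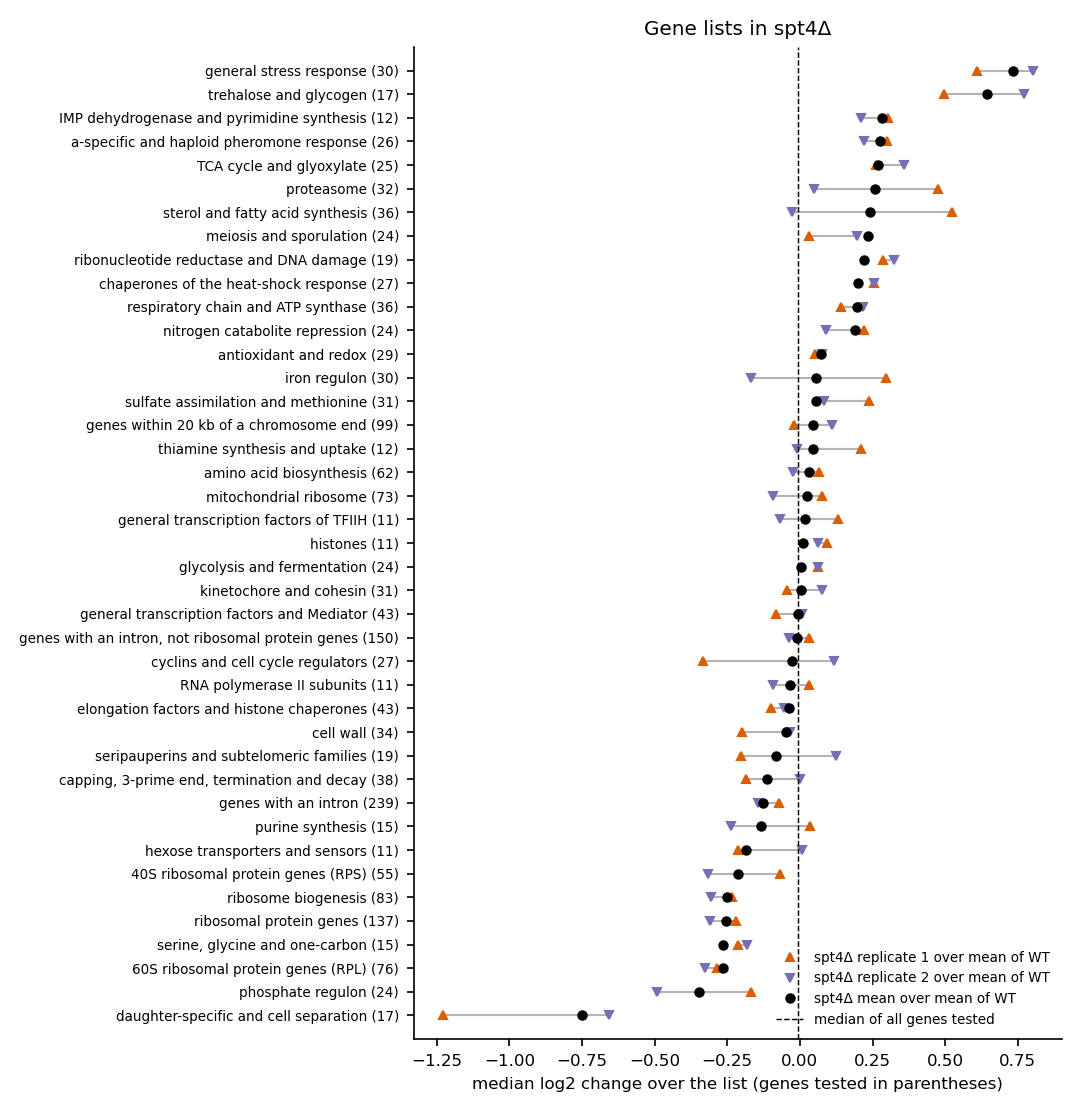
Median log2 change over each gene list with 10 or more tested members, for the mean of *spt4Δ* (black circles) and for *spt4Δ* replicates 1 (orange triangles, up) and 2 (purple triangles, down), each against the mean of WT, with the number of genes in parentheses and a dashed line at the median of all genes tested (-0.01). General stress (0.73), trehalose and glycogen (0.64) and the daughter-specific list (-0.75) stand farthest from that line, on the same side in both libraries.

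The genes called in *spt4Δ* were also read in cells from which Spt4 had been removed for a short time. In Spt4-AA (anchor-away), Spt4 is fused to FRB and eGFP and rapamycin ties it to the ribosomal protein Rpl13 fused to FKBP12, which carries it out of the nucleus, in a *tor1-1 fpr1Δ* strain that also has the *RPB3* tag. The 2 libraries taken after 140 min of rapamycin were set against 2 DMSO libraries at 120 min, 1 each from the Spt4-FRB and the Spt5-FRB strain, in a table normalized apart from that of *spt4Δ*. No library is shared with the deletion comparison. Here 221 of 4684 genes were called higher (4.72%) and 198 lower (4.23%). Depletion of Spt4 and exposure to rapamycin, which only the depleted libraries had, cannot be told apart in this comparison. *SPT4* RNA itself had a log2 change of -0.06 (limma adjusted p = 0.885) in these strains, in which the gene is tagged and not deleted.

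Of the 36 genes called higher in *spt4Δ*, 28 were tested in Spt4-AA. Of these, 20 were called higher there, against 4.72% of all genes tested, and none was called lower. Of these 28 genes, 27 had positive changes, and the median log2 change was 1.54. The exception was *MCH5*, singled out after its values were seen, with 99.4 and 89.5 in DMSO and 90.1 and 84.8 after rapamycin (log2 -0.11). Of the 18 genes called lower, *SPT4* left out, 13 were tested in Spt4-AA and 8 were called lower, against 4.23% of all genes tested. All 13 had negative changes, with a median of -1.37. The median in Spt4-AA over the 4670 genes tested in both was 0.01, and the share of each sign over those genes was not computed. *SER3* was about as high in both, with 360 and 331 in DMSO and 2465 and 3822 after rapamycin (log2 3.15 against 3.35 in *spt4Δ*). *PDC5* had 36.3 and 41.0 in DMSO and 161 and 186 after rapamycin (log2 2.14 against 5.13), and *IMD2* had 179 and 151 against 358 and 463 (log2 1.30 against 2.56). The stress genes went the other way: *GAD1* had 43.3 and 38.8 in DMSO and 413 and 435 after rapamycin (log2 3.34 against 1.72), and *HOR7* had 573 and 502 against 5118 and 3445 (log2 2.97 against 1.98). *HXT1* had 291 and 258 against 51.9 and 52.2 (log2 -2.37 against -1.30). *PDC1*, which limma did not call in *spt4Δ*, had 20800 and 19109 in DMSO and 10419 and 9255 after rapamycin. Its log2 change was -1.02 in Spt4-AA (limma adjusted p = 0.022) against -0.98 in *spt4Δ*. These differences between the 2 comparisons were not tested, because strain, treatment and table differ. Across 4670 genes tested in both, the log2 changes had a Pearson r of 0.642 and a Spearman rho of 0.632. Genes are not independent replicates, and *spt4Δ* replicate 1 alone gave an r of 0.458 and replicate 2 one of 0.647.

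**Figure D5:**
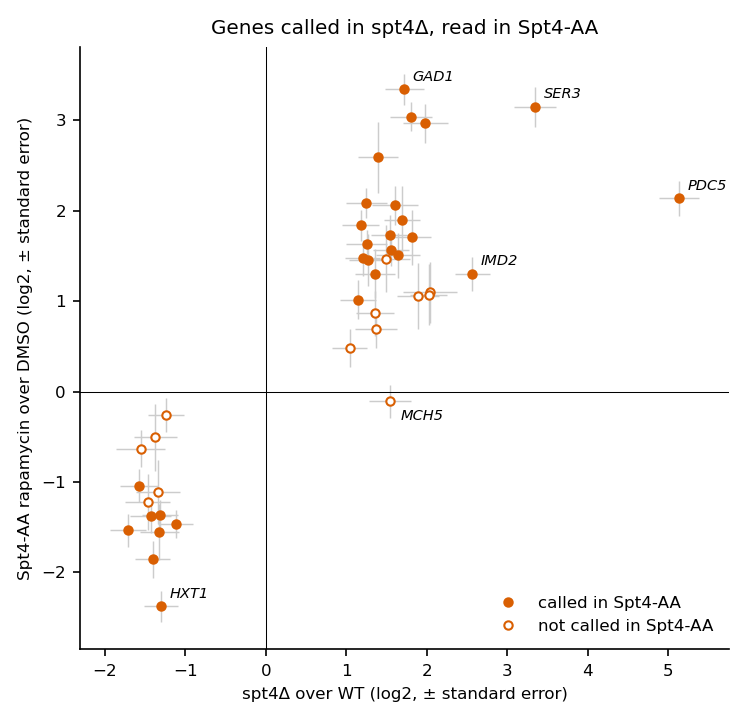
Log2 change in *spt4Δ* over WT (horizontal axis) and in Spt4-AA with rapamycin over DMSO (vertical axis), each ± the standard error of limma (n = 2 a group), for the 41 genes other than *SPT4* that were called in *spt4Δ* and tested in both. Filled points are the 28 genes called in Spt4-AA and open points the 13 that were not, and all but *MCH5* have the same sign on both axes.

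Whole lists were read there as well, where 4.72% of all genes tested were called higher and 4.23% lower. The general stress list had a median of 1.53 in Spt4-AA with 11 of 15 tested genes called higher, the trehalose and glycogen list 0.80 with 7 of 13, and the daughter-specific list -1.09 with 9 of 16 called lower. Ribosomal protein genes stood at -0.53 with 24 of 135 called lower, ribosome biogenesis genes at -0.61 with 25 of 81 called lower, and the respiratory list at 0.50 with 10 of 34 called higher. Each of these 6 medians had the sign it had in *spt4Δ*. Of the 41 lists with 10 or more tested genes, 9 had medians of opposite sign in the 2 comparisons, among them the cell wall (-0.05 in *spt4Δ* and 0.25 in Spt4-AA), sterol and fatty acid synthesis (0.24 and -0.02), and meiosis and sporulation (0.23 and -0.13). The phosphate regulon, whose replicates differed in *spt4Δ*, had a median of -0.23 with 5 of 23 genes called lower and 1 higher.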

How the data were processed

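RNA-seq libraries of WT and *spt4Δ* cells (n = 2 each) were read from 1 deposited table of 5572 genes. Per the labels, the authors' tools were Trim Galore, TopHat and DESeq2 with the builds sacCer3 and R64, and ASM294v2 for the *S. pombe* spike-in. The read counter and annotation are not given in the sources used here. The deposited signal is a normalized count, in which the authors divided the reads of each library by 1 factor, so the scaling decides what an unchanged gene is. All values (100%) were whole multiples of the step of 1 read (tolerance 0.01). The authors' own comparison tables, which hold fold changes and p-values from DESeq2, were not used, nor was the Spt5-AA table.

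Each library was divided by its median ratio to the geometric mean library. Genes with a mean of at least 10 were tested with limma (3.58.1, R 4.3.3, intensity trend) on log2(value + 1), two-sided, with Benjamini-Hochberg adjustment, and called at an adjusted p under 0.05. The 1 added to each value understates the change of low genes. Spt4-AA libraries (1866670 to 2730382 reads) were treated likewise. edgeR (4.0.16) and DESeq2 (1.42.0) on recovered reads, 2 pseudocounts, 3 filters, 2 scalings, blocks and left-out libraries were alternatives. A count of 0 allows up to 3 reads, which covers counting error only. The limma fit was tested on simulated data.

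The members and lists (38 lists from textbook knowledge, 1171 of 1178 symbols matched, and others from the annotation) were chosen with earlier results of these data known. Genes named were *SPT4* and its neighbours, the 12 largest rises and 12 largest falls among called genes with a group mean of at least 50 and no overlap, other called genes in a list, the extremes of each list described, tagged or deleted genes, and paralogs. Of the IDs listed, 255 had no entry in the R64 annotation. Figures and counts used Python 3.11.15 with pandas 2.3.3 and matplotlib 3.10.9.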

Additional observations from a re-analysis of the deposited data

How the results depend on the processing

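The 55 calls became 16 on the values as deposited, 14 with each library at the same total, 90 with the replicate number as a block (54 of the 55 shared), 108 with DESeq2 and 267 with the crossed replicate block, added after seeing the data. Leaving out 1 library in turn gave 16 to 1586. Other filters and pseudocounts gave 48 to 59 and both edgeR fits 47 and 53, and none of the 55 called genes changed direction in any alternative in which it was fitted. On the values as deposited, where the median gene stood at 0.83, the medians of all 18 gene lists with 10 or more tested genes that lay below 0 turned positive, such as that of the daughter-specific list (-0.75 to 0.085), ribosomal protein genes (-0.26 to 0.59), ribosome biogenesis (-0.25 to 0.59) and the phosphate regulon (-0.35 to 0.49). Whether the replicate numbers mark a shared day or batch is not given in the sources used here. The replicate differences of WT and *spt4Δ* had a correlation of -0.37 across 4115 genes, and the numbers were not taken to pair the libraries. *SPT4* was called throughout, with log2 changes from -9.75 (pseudocount 0.1) to -5.39 (pseudocount 10), and -8.86 to -6.93 with 1 library left out. In Spt4-AA the 419 calls became 1022 as deposited (13.9% higher), 671 at the same total (72.9% higher) and 459 with edgeR. Of 36 named genes other than *SPT4*, the call was lost by 32 on the values as deposited, 26 at the same total, 24 without WT replicate 1, 20 without WT replicate 2, 4 with edgeR (*CIN2*, *CIS1*, *HSP150* and *GDH3*) and 1 with the replicate block (*SUN4*). The depth was 137 to 378 reads at the median gene of a library, and genes with a mean under 10 were not read.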
